A study of Mus musculus with 8 samples.

Results

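The transcripts described here were those of 36 genes that mark leukocytes, measured in intestinal epithelial cells (IECs) from which leukocytes had been sorted out. They were chosen by gene symbol, as the entries of a hand-picked set found in a count table of 25239 genes, and all 36 were in it. The set comprised 5 pan-leukocyte genes, 16 T and natural killer (NK) cell genes, 6 B and plasma cell genes and 9 myeloid genes. The study sorted EpCAM+ CD45- CD31- Ter119- cells from crypts of the proximal small intestine and profiled them by bulk poly(A) RNA-seq. There were 8 samples, each from 1 mouse, 4 of wild-type (WT) C57BL/6Jax mice and 4 of CD1d1/2 KO mice (CD1d-KO), which lack both CD1d genes throughout the body and have no NKT cells. The mice were untreated and 7 to 10 weeks old, both sexes were used, and no label records a sample's sex, experiment or date.

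CD1d presents lipids to NKT cells, a T cell population that makes cytokines rapidly once activated. The epithelium of the small intestine normally holds intraepithelial lymphocytes, most of them CD8+ T cells that carry granzymes and the integrin CD103, wedged between the epithelial cells. Beneath it, the lamina propria is rich in IgA plasma cells, macrophages and dendritic cells. CD45, encoded by Ptprc, sits on the surface of leukocytes and was the protein used to exclude them. Where leukocyte RNA in such a sort comes from (whole cells, fragments, free RNA or the epithelial cells themselves) was not tested. In bulk samples, fewer cells of a type and less RNA per cell cannot be told apart. By flow cytometry, the study reported skewed NK cells in the lamina propria and skewed TCR-β+ intraepithelial cells in CD1d-KO mice. Its text does not give the direction.

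Total counts ranged from 23610266 to 31629435 per sample. Cd1d1, the targeted gene, had 0 to 7.15 normalised counts in CD1d-KO and 61.1 to 91.1 in WT (normalised counts are fragment counts divided by a size factor for the sample's depth). Ddx3y, a gene on the Y chromosome, had 1722 and 2053 normalised counts in CD1d-KO 1 and 2 and at most 1.05 in the other 6 samples. Xist, an X-linked transcript of females, had 67.9 and 50.5 in CD1d-KO 1 and 2 and 21985 to 35403 in the other 6. By both genes, CD1d-KO 1 and 2 were male and the other 6 samples female. Sex was thus not balanced between the genotypes in these samples, although the study's methods describe age and sex as matched. The study also lists as a limitation that its mice were not littermates. Markers of gastric epithelium stood apart by genotype, the 15 listed genes found in the table summing to 831 to 1740 normalised counts in CD1d-KO and 2686 to 17797 in WT, with 6 of the 13 tested lower in CD1d-KO and 1 higher and none at 0 in every sample. Both features are taken up beside the results below.

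Promoters are shown for 3 of the genes that were lower in CD1d-KO, 1 each for the plasma cell, T cell and myeloid classes. Each runs from 250 bases before to 50 bases after the start of the gene (RefSeq, GRCm38.p6), and capitals mark GAGGAA on either strand, the core that ETS factors such as PU.1 bind. The Jchain window is chr5:88527848-88528147 on the minus strand, that of Cd8a is chr6:71373177-71373476 on the plus strand and that of Itgam is chr7:128062390-128062689 on the plus strand.
Jchain: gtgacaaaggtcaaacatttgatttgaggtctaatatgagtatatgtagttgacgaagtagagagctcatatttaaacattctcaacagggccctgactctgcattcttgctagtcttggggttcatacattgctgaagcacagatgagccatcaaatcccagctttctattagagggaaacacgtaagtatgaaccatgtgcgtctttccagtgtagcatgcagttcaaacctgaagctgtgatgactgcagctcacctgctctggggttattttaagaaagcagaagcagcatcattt
Cd8a: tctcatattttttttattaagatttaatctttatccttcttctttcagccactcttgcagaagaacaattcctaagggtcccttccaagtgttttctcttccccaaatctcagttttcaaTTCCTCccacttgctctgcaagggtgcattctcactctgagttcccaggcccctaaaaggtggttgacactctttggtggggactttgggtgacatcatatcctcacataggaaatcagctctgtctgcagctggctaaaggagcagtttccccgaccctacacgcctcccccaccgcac
Itgam: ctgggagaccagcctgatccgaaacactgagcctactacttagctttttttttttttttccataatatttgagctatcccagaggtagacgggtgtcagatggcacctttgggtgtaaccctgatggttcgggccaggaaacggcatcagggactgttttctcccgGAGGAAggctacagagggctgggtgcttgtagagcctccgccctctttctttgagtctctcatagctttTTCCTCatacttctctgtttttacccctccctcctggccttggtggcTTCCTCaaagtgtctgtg
The Itgam window held GAGGAA 3 times, that of Cd8a once and that of Jchain 0 times. Of the 36 genes, 22 matched a RefSeq promoter. GAGGAA was in 13 of these 22 windows and in 28.28% of all 32851, TGTGGT (the RUNX core) in 7 of 22 and 16.76%, and ATGCAAAT (the octamer of B cell promoters) in 0 of 22 and 1.735%. The searches covered both strands, no motif contains another, and a match describes letters and not a bound site.

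Leukocyte transcripts were present in every sample but were a small part of the RNA. As FPKM (fragments per kilobase of exon, scaled to the sample's total), computed here from the counts, Ptprc stood at 0.333 ± 0.142 in CD1d-KO and 0.593 ± 0.131 in WT (mean ± SD, n = 4 each here and below). Epcam, which encodes the epithelial adhesion protein used in the sort, stood at 945 in CD1d-KO and 894 in WT on the same scale, 2837 and 1507 times the level of Ptprc. Epcam ranged from 52223 to 58699 normalised counts over the 8 samples, Cdh1 (E-cadherin) from 42316 to 46748 and Vil1 (villin) from 36315 to 47449, and 0 of the 13 epithelial genes listed passed in DESeq2 or in edgeR, 1 of them having an unadjusted p under 0.05 in DESeq2. On the length-adjusted scale, levels within the set spanned from 59.7 in CD1d-KO and 63.6 in WT for Ctss down to 0 in CD1d-KO for Cd2 and 0.0160 in WT for Csf1r.

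**Figure D1:**
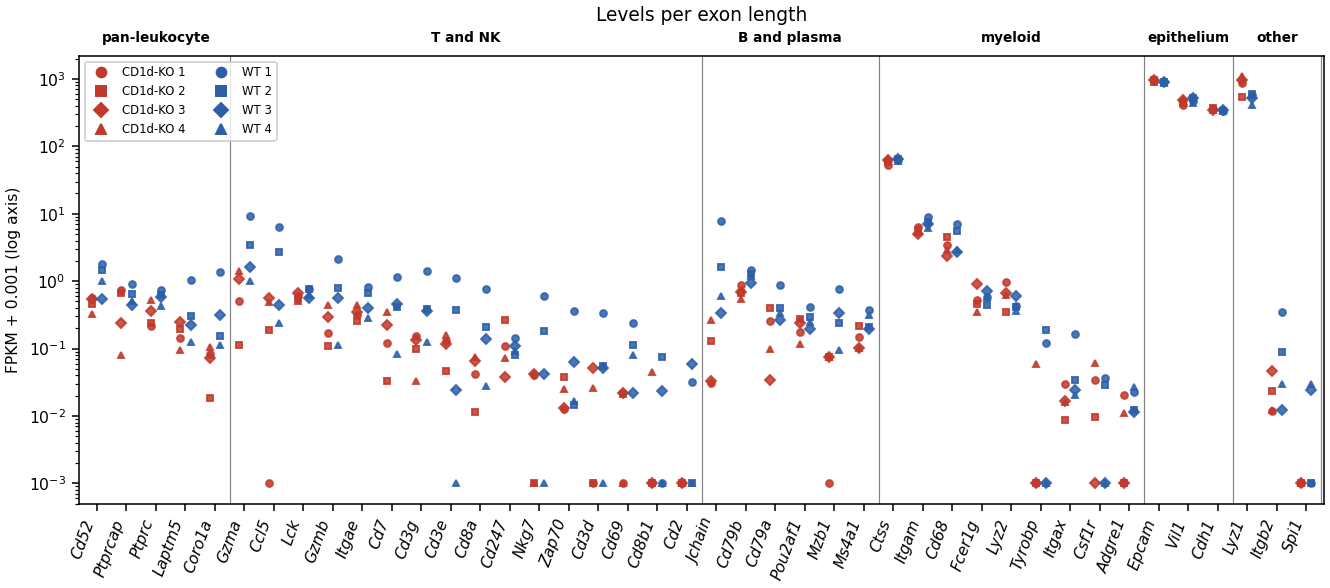
Level of each gene as FPKM plus 0.001 (log axis), 1 point per sample, CD1d-KO in red and WT in blue, by cell class and beside epithelial and other reference genes. Mean Ptprc lies 2837 (CD1d-KO) and 1507 (WT) times below mean Epcam, and Ctss, at 59.7 and 63.6, lies above the other leukocyte genes.

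Of the 36 genes, 31 were tested and 5 passed, all of them lower in CD1d-KO: Coro1a, Cd3g, Cd8a, Jchain and Itgam (DESeq2, Benjamini-Hochberg adjusted p under 0.05). Over the whole table, 4.03% of 15446 tested genes passed and 2.38% passed with a lower level in CD1d-KO. Log2 fold changes (CD1d-KO over WT) were below 0 for 29 of the 31, against 49.7% of all tested genes, with a median of -1.33 against 0.00 for all tested genes. Every CD1d-KO sample lay below every WT sample for 4 of the 31, Coro1a, Cd79b, Mzb1 and Jchain, against 5.52% of tested genes. Unadjusted p-values were under 0.05 for 18 of the 31, against 2357 of all 15446 tested genes. Cd8b1, Cd2, Csf1r, Tyrobp and Adgre1 were under the mean-count filter and were not tested. Because a gene this scarce passes that filter through the samples where it is high, the counts describe these 31 genes and are not evidence for the set as a whole.

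The 8 samples were not ordered by genotype alone. WT 1 held the highest value for 26 of the 31 tested genes and WT 2 for 2, and 1 gene each was highest in CD1d-KO 1, 2 and 3. WT 1 exceeded every CD1d-KO sample for 27 genes, WT 2 for 25, WT 3 for 13 and WT 4 for 7. WT 1 and WT 2 stood above the CD1d-KO samples for most of the set, and WT 4 for few. Without WT 1, 1 gene passed (Jchain, of 27 tested), and without WT 4, 7 passed (Gzmb and Mzb1 in addition, of 32). Leaving out CD1d-KO 2 also left 1 (Jchain), WT 2 left 2 (Coro1a and Jchain), and CD1d-KO 1 or 3 left 3 (Coro1a, Jchain and Itgam). Over the whole table, 4.03% of tested genes passed with all samples, 2.65% without WT 1 and 3.54% without WT 4. The share was 2.06% without CD1d-KO 2, 2.35% without WT 2, 3.22% without CD1d-KO 1 and 4.64% without CD1d-KO 3.

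**Figure D2:**
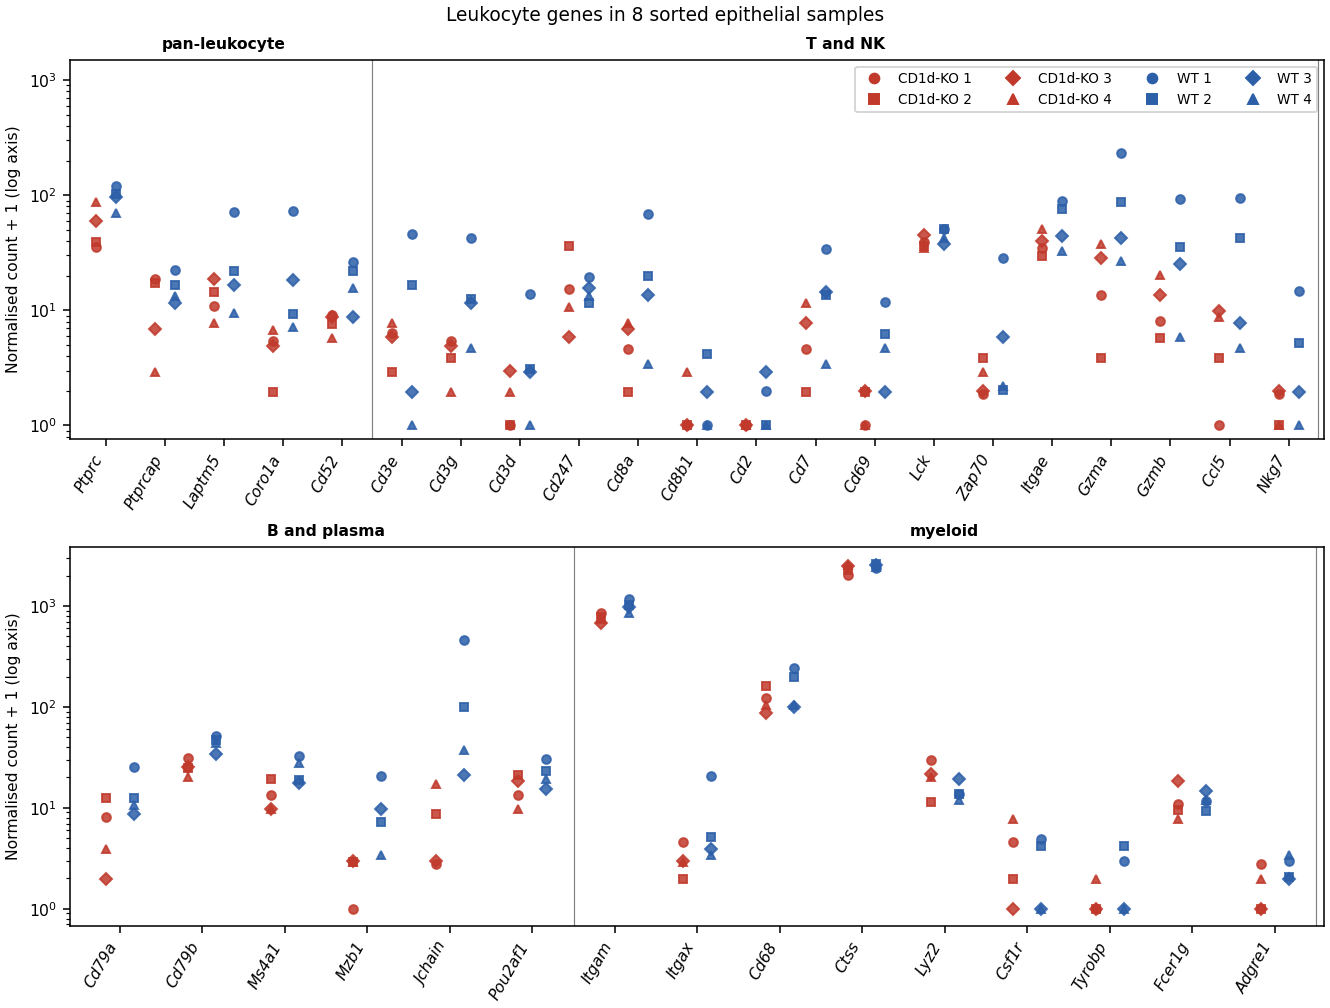
Normalised count plus 1 (log axis) of the 36 genes in each sample, CD1d-KO in red and WT in blue, with a marker shape for each replicate number. WT 1 (blue circles) is the top point for most lymphoid genes, and WT 4 (blue triangles) often lies among the CD1d-KO points.

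The pan-leukocyte genes encode proteins shared by most blood-derived cells. Coro1a, an actin regulator of leukocytes (chromosome 7, 126699774 to 126704816, minus strand; mm10 here and below), had 4.47, 0.952, 3.91 and 5.76 normalised counts in CD1d-KO 1 to 4 and 72.6, 8.38, 17.5 and 6.11 in WT 1 to 4. The groups did not overlap, although WT 4 lay just above CD1d-KO 4 and WT 1 far above the other WT samples. It was lower in CD1d-KO by a log2 fold change of -2.80 ± 0.80 (SE; adjusted p = 0.0180), and not called without CD1d-KO 2 (0.0892) or without WT 1 (log2 fold change -1.51, 0.418).

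Ptprc (CD45, chromosome 1, 138062859 to 138175305, minus strand), the protein the sort excluded, had 34.9, 38.1, 58.6 and 86.4 normalised counts in CD1d-KO and 119, 101, 96.0 and 69.7 in WT. CD1d-KO 4 lay above WT 4, so the groups overlapped. The difference did not pass (-0.83 ± 0.29, adjusted p = 0.0879), except without CD1d-KO 4 (-1.14, 0.00270). It was -0.41 (0.698) without CD1d-KO 1 and 2, which carried Y-linked counts, and -0.37 (0.929) with the stomach score described below as a covariate. Ptprcap, which associates with CD45, gave -0.52 ± 0.60 (adjusted p = 0.788), Laptm5, a lysosomal protein of leukocytes, gave -1.29 ± 0.60 (0.264), and Cd52, a small lymphocyte surface glycoprotein, gave -1.33 ± 0.53 (0.152). Laptm5 ranged from 6.72 to 17.6 normalised counts in CD1d-KO and reached 70.7 in WT 1, while WT 4 held 8.56. Cd52 ranged from 4.80 to 8.05 in CD1d-KO and from 7.76 to 25.5 in WT. Of the 5 pan-leukocyte genes 1 passed, and the median log2 fold change of the 5 was -1.29 (-0.71 without WT 1). Their counts summed to 75.1 to 106 in CD1d-KO and 111 to 309 in WT, and Ptprc made up 62.3% of the CD1d-KO sum and 52.4% of the WT sum. These sums did not overlap, and their ratio of means, WT over CD1d-KO, was 2.10 (1.62 without WT 1).

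Another 34 pan-leukocyte genes were examined beside them, and 3 of 30 tested passed, all lower in CD1d-KO. Arhgdib had 0 to 3.84 normalised counts in CD1d-KO and 9.69 to 31.4 in WT (-3.26 ± 0.76, adjusted p = 0.00123). Srgn, the proteoglycan core of leukocyte granules, had 0.894 to 8.80 in CD1d-KO and 11.6 to 29.5 in WT (-2.41 ± 0.64, 0.00882). For both genes the genotypes did not overlap. Cd53, a tetraspanin, had 1 count in the 4 CD1d-KO samples together and 29 in the 4 WT samples (adjusted p = 0.0180), a ratio of 32.1 with an exact 95% interval of 5.33 to 1312 that covers counting error only. The median log2 fold change of the 30 tested was -0.95, and 26 lay below 0. The sums of the 34 genes overlapped, at 4740 to 5207 normalised counts in CD1d-KO and 4983 to 5494 in WT (ratio of means, WT over CD1d-KO, 1.05). Without CD1d-KO 2, 1 of these genes passed.

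T and NK genes cover the antigen receptor, its signalling and the cytotoxic granule. The CD3 chains carry the signal of the T cell receptor, and Cd3g, Cd3d and Cd3e lie side by side on chromosome 9, with 1355 bases between Cd3g and Cd3d and 11691 between Cd3d and Cd3e. Cd3g (44969572 to 44980431, minus strand) had 4.47, 2.86, 3.91 and 0.960 normalised counts in CD1d-KO and 41.2, 11.5, 10.7 and 3.67 in WT. WT 4 lay within the CD1d-KO range and the other WT samples above it. It was lower in CD1d-KO by -2.46 ± 0.79 (adjusted p = 0.0470), close to the threshold, and among fits that left out 1 sample it passed only without WT 4 (0.0128), with adjusted p-values of 0.0687 to 0.474 in the other 7 (-1.51 and 0.474 without WT 1).

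Cd3e, its partner, had 5.36, 1.90, 4.89 and 6.72 normalised counts in CD1d-KO and 45.2, 15.7, 0.969 and 0 in WT. Here WT 3 and WT 4 lay below every CD1d-KO sample, and the difference did not pass (-1.72 ± 1.02, adjusted p = 0.445). Cd3d had 3 counts in all CD1d-KO samples and 17 in WT, 13 of them in WT 1, a ratio of 6.28 (exact 95% interval 1.82 to 33.4 for counting error) with an adjusted p of 0.431. Cd247, the zeta chain of the receptor, went the other way, at 4.89 to 35.2 in CD1d-KO and 10.5 to 18.7 in WT (0.19 ± 0.57, 0.945). In the annotation counted, 63.4% of the exon bases of Cd247 overlap Pou2f1 on the opposite strand, and strand was not used in counting, so reads of the pair cannot be told apart.

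Cd8a, the co-receptor of cytotoxic T cells and of most intraepithelial lymphocytes (chromosome 6, 71373427 to 71379171, plus strand), had 3.58, 0.952, 5.86 and 6.72 normalised counts in CD1d-KO and 67.7, 18.9, 12.6 and 2.45 in WT. WT 1 lay far above the rest, WT 2 and WT 3 above the CD1d-KO range and WT 4 within it. It was lower in CD1d-KO by -2.58 ± 0.82 (adjusted p = 0.0435). The call was kept without CD1d-KO 4 (0.0447), WT 3 (0.0447) or WT 4 (0.00341), and lost without CD1d-KO 1 (0.106), CD1d-KO 2 (0.158), CD1d-KO 3 (0.0549), WT 1 (-1.42, 0.514) or WT 2 (0.100). Cd8b1, the other CD8 chain, lies 35935 bases upstream of Cd8a and was at 2 counts in CD1d-KO and 4 in WT, and Cd2, an adhesion receptor of T cells, was at 0 in CD1d-KO and 3 in WT. Neither was tested.

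Genes of the cytotoxic granule and a chemokine followed the same samples. Gzma (granzyme A) had 12.5, 2.86, 27.4 and 36.5 normalised counts in CD1d-KO and 231, 87.0, 41.7 and 25.7 in WT. Gzmb (granzyme B) had 7.15, 4.76, 12.7 and 19.2 in CD1d-KO against 91.3, 34.6, 24.2 and 4.89 in WT. Ccl5, a chemokine of cytotoxic lymphocytes, had 0, 2.86, 8.80 and 7.68 in CD1d-KO against 94.2, 41.9, 6.79 and 3.67 in WT. In all 3, WT 1 held the highest value and WT 4 lay inside the CD1d-KO range. Differences were -2.28 ± 0.91 for Gzma (adjusted p = 0.159), -1.83 ± 0.67 for Gzmb (0.101) and -2.93 ± 1.28 for Ccl5 (0.213), none of which passed. Gzmb passed without WT 4 (-2.20, 0.00613). Nkg7, a protein of cytotoxic granules, had 2 counts in CD1d-KO and 19 in WT, a ratio of 10.5 (2.54 to 93.2), and did not pass (adjusted p = 0.278).

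Itgae (CD103), the integrin that tethers lymphocytes to E-cadherin, had 34.0, 28.6, 39.1 and 49.9 normalised counts in CD1d-KO and 88.4, 74.4, 43.6 and 31.8 in WT (-0.66 ± 0.34, adjusted p = 0.334). Lck, the kinase that starts receptor signalling, had 33.6 to 44.0 in CD1d-KO and 36.8 to 50.3 in WT (-0.24 ± 0.25, 0.751). Zap70, the kinase that acts after Lck, had 0.894 to 2.86 in CD1d-KO and 1.05 to 4.85 in WT apart from 27.5 in WT 1 (-2.39 ± 1.11, 0.257). Cd69, a marker of activation and tissue residence, had 2 counts in CD1d-KO and 20 in WT, a ratio of 11.1 (2.69 to 97.7; adjusted p = 0.165), and Cd7, a lymphocyte surface protein, gave -1.51 ± 0.77 (0.326). Lck, Itgae and Ptprc were the 3 lymphoid or pan-leukocyte genes with at least 28.6 normalised counts in every sample.

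Of the 14 T and NK genes tested, 2 passed, 13 had a log2 fold change below 0, and their median was -2.34 (-0.89 without WT 1). Without WT 1, Cd3d, Cd69, Zap70 and Nkg7 received no adjusted p and were not part of that median. WT 1 lay above every CD1d-KO sample for 13 of the 14, WT 2 for 12, WT 3 for 6 and WT 4 for 1. The summed normalised counts of the 16 genes were 125, 120, 163 and 186 in CD1d-KO against 827, 373, 217 and 133 in WT. WT 4 fell inside the CD1d-KO range, and the ratio of means, WT over CD1d-KO, was 2.61 with WT 1 and 1.62 without it.

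Among 52 further T and NK genes, 45 were in the table, 17 were tested and 0 passed in DESeq2, with 3 at an unadjusted p under 0.05; edgeR gave 0 as well. Without WT 3, 1 passed. The median log2 fold change of the 17 was -0.83. The list summed to 3070 to 3350 normalised counts in CD1d-KO and 2959 to 3344 in WT, a ratio of 0.966. The most abundant were Bcl11b (mean 2549 in CD1d-KO and 2422 in WT) and Tcf7 (502 and 446), transcription factors that did not pass (adjusted p = 0.809 and 0.586). Zbtb16, which encodes the NKT cell regulator PLZF, had 8.94, 13.3, 14.7 and 139 normalised counts in CD1d-KO and 12.8, 9.43, 12.6 and 26.9 in WT and received no p-value because of the outlying count in CD1d-KO 4. Ifng was at 0 in 7 samples and at 3 counts in WT 1. Trac and Trdc, the constant segments of the receptor chains, were on the list, and no values are given for them here.

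**Figure D3:**
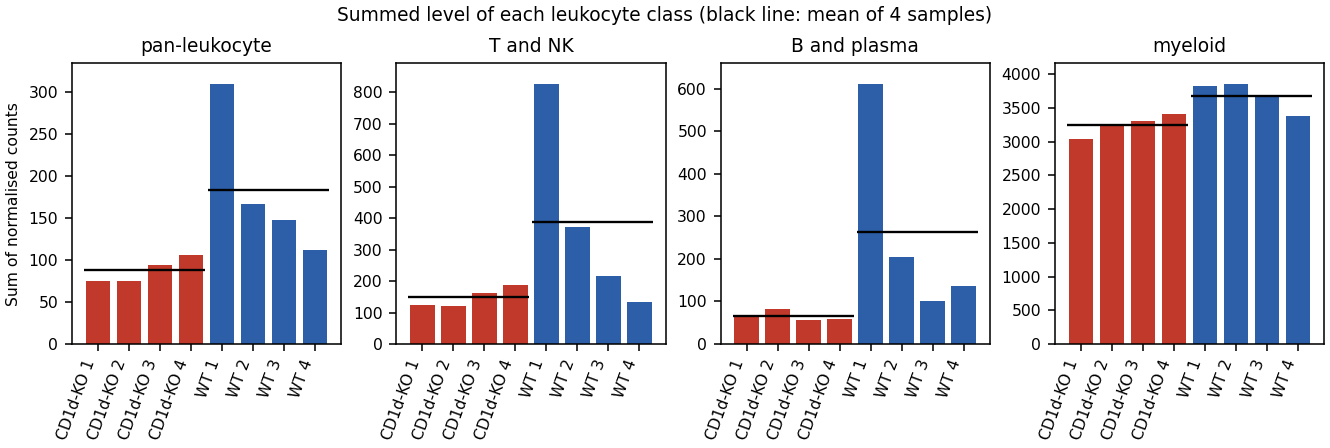
Summed normalised counts of the genes of each class in each sample (bars, from 0; red CD1d-KO, blue WT), with the mean of 4 samples as a black line and a separate axis for each class. WT 1 is the highest bar in the 3 panels other than the myeloid one, and the WT bars for pan-leukocyte and B and plasma genes all exceed the CD1d-KO bars.

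B and plasma cell genes included the most negative fold change of the 31. Jchain, which joins IgA and IgM into polymers and is made in bulk by plasma cells (chromosome 5, 88519809 to 88527897, minus strand; promoter above), had 1.79, 7.62, 1.95 and 16.3 normalised counts in CD1d-KO and 456, 99.6, 20.4 and 36.7 in WT. The lowest WT sample, WT 3, lay above the highest CD1d-KO sample, CD1d-KO 4. The mean was 6.92 ± 6.83 in CD1d-KO and 153 ± 205 in WT, so the SD within WT exceeded the mean. Jchain was lower in CD1d-KO by -4.47 ± 1.14 (adjusted p = 0.00552) and was called with any 1 sample left out (0.00150 to 0.0368). Without WT 1 the log2 fold change was -2.92 (0.00227). It made up 58.2% of the summed B and plasma counts in WT and 10.6% in CD1d-KO.

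Mzb1, a chaperone of antibody-secreting cells, had 0, 1.90, 1.95 and 1.92 normalised counts in CD1d-KO and 19.6, 6.29, 8.73 and 2.45 in WT. The groups did not overlap, but CD1d-KO held 0 to 2 counts a sample and WT 4 held 2 as well. The difference did not pass (-2.71 ± 0.95, adjusted p = 0.0832), except without WT 4 (-3.02, 0.0461). In the GENCODE annotation of GRCm39, 45.2% of the 50-base stretches of Mzb1 transcripts also occur in the overlapping locus Gm50318.

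Cd79b, a signalling chain of the B cell receptor, had 30.4, 23.8, 24.4 and 19.2 normalised counts in CD1d-KO and 50.1, 46.1, 33.0 and 42.8 in WT. All WT samples lay above all CD1d-KO samples, and WT 1 did not stand apart. The difference did not pass (-0.81 ± 0.29, adjusted p = 0.0965). Cd79a, the other chain, had 0.977 to 11.4 in CD1d-KO and 7.76 to 24.5 in WT (-1.26 ± 0.69, 0.386). Ms4a1, which encodes CD20, had 8.64 to 18.1 and 16.5 to 31.4 (-0.94 ± 0.43, 0.245), and Pou2af1, a B cell coactivator of octamer factors, had 8.64 to 20 and 14.5 to 29.5 (-0.53 ± 0.42, 0.627). Of the 6 genes 1 passed, all 6 fold changes were below 0, and their median was -1.10. Class sums were 64.4, 82.9, 55.7 and 57.6 in CD1d-KO against 611, 203, 101 and 137 in WT, which did not overlap. Their ratio of means was 4.04 (2.26 without WT 1), against a median of the 6 genes' own ratios of 2.16. Without Jchain the ratio of sums was 1.89.

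Of 25 other B and plasma genes, 18 were in the table, 10 were tested and 1 passed, lower in CD1d-KO. The list had 0 calls when WT 1, WT 3, CD1d-KO 3 or CD1d-KO 4 was left out and 2 when CD1d-KO 2 was. The 18 genes summed to 35.2 to 56.3 in CD1d-KO and 63.9 to 159 in WT. Immunoglobulin genes were on the list, and no values are given for them here.

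Of the myeloid genes, Ctss, Itgam and Cd68 were abundant and the others scarce. Itgam, which encodes the CD11b integrin chain of neutrophils and macrophages (chromosome 7, 128062640 to 128118491, plus strand; promoter above), had 848, 768, 678 and 739 normalised counts in CD1d-KO and 1169, 1029, 969 and 844 in WT. CD1d-KO 1 lay just above WT 4, and the groups were otherwise apart. It was lower in CD1d-KO by -0.40 ± 0.11 (adjusted p = 0.0127), with the smallest error of the 5 called genes. The call was lost without CD1d-KO 2 (0.0519), WT 1 (-0.32, 0.0821) or WT 2 (0.0795).

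Itgam stood far above the gene of its partner chain. Itgb2, which encodes the CD18 chain that pairs with CD11b, stood at 0.0226 FPKM in CD1d-KO and 0.118 in WT, against 5.64 and 7.47 for Itgam. The level of Itgam was 249 times that of Itgb2 in CD1d-KO and 63.4 times in WT, and 16.9 and 12.6 times that of Ptprc. Itgb2 had 0.894, 1.90, 3.91 and 0.960 normalised counts in CD1d-KO and 28.5, 7.34, 0.969 and 2.45 in WT (-2.37 ± 1.05, adjusted p = 0.222), with WT 1 and WT 2 high as for the T cell genes. In GRCm39, 63.5% of the 50-base stretches of Itgam transcripts also occur in Gm49368, an overlapping locus. Itgax (CD11c), 11059 bases downstream of Itgam, had 0.952 to 3.58 in CD1d-KO and 2.45 to 4.19 in WT apart from 19.6 in WT 1 (-1.80 ± 0.95, 0.357).

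Ctss, a protease that trims the invariant chain of class II molecules and is made by myeloid and some epithelial cells, had 2028 to 2535 normalised counts in CD1d-KO and 2366 to 2594 in WT (-0.09 ± 0.08, adjusted p = 0.714). Cd68, a lysosomal protein of macrophages, had 122, 162, 86.0 and 104 in CD1d-KO against 243, 198, 97.9 and 104 in WT (-0.44 ± 0.29, 0.512). Lyz2, the lysozyme of macrophages, was the tested gene with the most positive change, at 10.5 to 28.6 in CD1d-KO and 11 to 18.4 in WT (0.52 ± 0.43, 0.649). Lyz1, its Paneth cell counterpart, had 19468 to 40404 in CD1d-KO and 15244 to 21808 in WT and rose by 0.73 ± 0.23 (0.0416), and 5.63% of the 50-base stretches of Lyz2 occur in Lyz1. Fcer1g, an adaptor of Fc receptors, had 6.72 to 17.6 in CD1d-KO and 8.38 to 13.6 in WT (-0.04 ± 0.51, 0.988).

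The genes most restricted to macrophages were at or near 0. Csf1r, the growth factor receptor of macrophages, had 0 to 7 counts a sample, Tyrobp, an adaptor of myeloid receptors, had 0 to 3, and Adgre1, which encodes F4/80, had 0 to 2. Csf1r had 4, 1, 0 and 7 counts in CD1d-KO 1 to 4 against 4, 3, 0 and 0 in WT 1 to 4. Group totals were 1 and 5 counts (CD1d-KO, WT) for Tyrobp and 3 and 6 for Adgre1, and none of the 3 was tested. Spi1, which encodes PU.1, had at most 1 count in a sample. Of 6 myeloid genes tested 1 passed, and the median log2 fold change was -0.25 (-0.076 without CD1d-KO 2, -0.14 without WT 1 and -0.10 without WT 4). Csf1r was also tested, and entered the median, without CD1d-KO 2 and without WT 4. Ctss and Itgam made up 71.9% and 23.3% of the class sum in CD1d-KO and 67.4% and 27.2% in WT, and the sum was 3044 to 3414 in CD1d-KO and 3384 to 3853 in WT (ratio of means 1.13, and 1.31 without Ctss).

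Among 31 further myeloid genes, 13 were tested, 2 were lower and 1 was higher. This count of 3 was 0 without WT 1 and 1 without any of CD1d-KO 1, 2 and 3 or WT 3 and 4. Cd14, the co-receptor for lipopolysaccharide, had 293, 329, 227 and 200 normalised counts in CD1d-KO and 532, 390, 351 and 383 in WT and fell by 0.66 ± 0.18 (adjusted p = 0.00942). Cybb, a subunit of the phagocyte oxidase, was at 0 in CD1d-KO and at 12.8, 1.05, 3.88 and 2.45 in WT (0.0436). Its WT mean was 1.68 times a floor of 3 counts per sample. WT 1 carried that ratio, and WT 2 and WT 4 lay below the floor. Cd83, a marker of mature dendritic cells and activated lymphocytes, had 155 to 206 in CD1d-KO and 92.9 to 157 in WT and rose by 0.61 ± 0.18 (0.0218). The 31 genes summed to 1090 to 1300 in CD1d-KO and 1242 to 1529 in WT, which overlapped. Cd163 and Fcgr1, markers of macrophages, were at 0 in every sample.

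**Figure D4:**
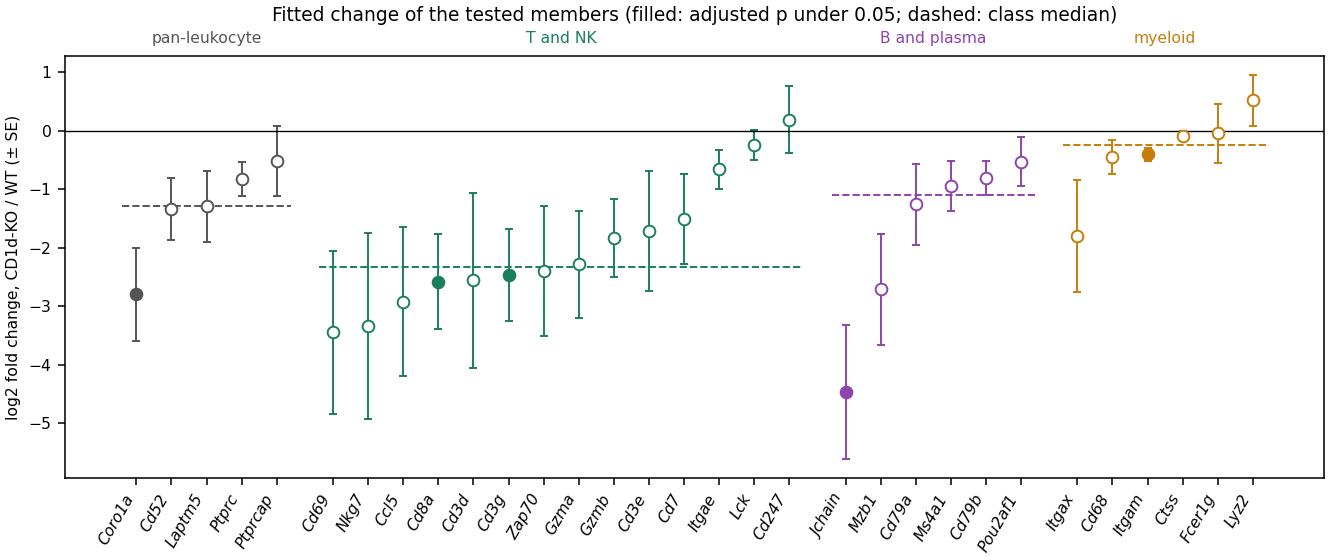
Fitted log2 fold change (CD1d-KO over WT) with its SE for the 31 tested genes, by class and sorted within it, filled where the adjusted p was under 0.05, with the class median as a dashed line. The lymphoid genes reach -4.47 (Jchain) with wide errors, and Itgam passes with a change of -0.40 because its error is 0.11.

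Genes of other cell types were read in the same way. The sort excluded mast cells and eosinophils (CD45+), endothelium (CD31+) and erythroid cells (Ter119+) by their surface proteins and stromal cells by the need for EpCAM, while tuft and Paneth cells are epithelial and pass the gate. Of 10 mast cell and eosinophil genes 1 was tested (Mcpt1, adjusted p = 0.143), their sums were 0.952 to 8.05 in CD1d-KO and 4.19 to 28.1 in WT, and Cma1, Cpa3, Fcer1a and Ms4a2 were at 0 throughout. Of 16 stromal and endothelial genes 5 were tested and 0 passed, in DESeq2 and in edgeR, with 0 at an unadjusted p under 0.05. They summed to 312 to 363 in CD1d-KO and 300 to 359 in WT, led by Pdgfrb and Tagln. Erythroid genes summed to 6.84 to 14.3 and 4.85 to 16.7, nearly all of it Alas2, and the globin genes were at 0. The stromal and erythroid sums overlapped between genotypes. Of 16 tuft cell genes 1 was lower (Matk, -0.51 ± 0.15, adjusted p = 0.0285; 0 when WT 2, WT 3, CD1d-KO 2 or CD1d-KO 3 was left out and 5 when WT 1 was), and of 9 Paneth cell genes 3 were higher, with Clps (0.83 ± 0.17, 0.000105) and Defa26 (0.81 ± 0.21, 0.00592) beside Lyz1.

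The stomach markers moved with genotype too, but in a different order of samples. They were highest in WT 3 and WT 4 (17797 and 7878 normalised counts) and lower in WT 1 and WT 2 (2786 and 2686), whereas the T and NK sum was highest in WT 1 and WT 2. Vsig1 (-4.32 ± 1.05, adjusted p = 0.00273), Anxa10 (-5.17 ± 1.34, 0.00617), Muc6 (-1.70 ± 0.47, 0.0137) and Ctse (-4.42 ± 1.32, 0.0275) had the smallest adjusted p-values, and the list's 7 calls varied from 2 (without CD1d-KO 2 or WT 3) to 11 (without CD1d-KO 4). A stomach score was the mean log2 level of these markers, with each gene centred. It was -2.65 to 0.194 in CD1d-KO and 0.796 to 3.53 in WT, which did not overlap. A fit with both terms can hardly separate score from genotype, so its lost calls decide nothing. With this score as a covariate, 0 of 32 leukocyte genes passed in DESeq2. An unadjusted p under 0.05 was found for 13 of them, and the whole-table count of such genes in this fit was not computed. Over the whole table, 0.632% of 15814 genes passed. The 5 called genes had log2 fold changes of -3.33 (Coro1a), -4.88 (Cd3g), -3.29 (Cd8a), -4.53 (Jchain) and -0.61 (Itgam), with larger errors. Without the CD1d-KO samples that carried Y-linked counts, which left 2 against 4, Itgam alone passed (-0.50, 0.0129), and Jchain was at -4.07 (0.164). Of the whole table, 2.57% of 14473 genes passed in that fit. No WT sample carried Y-linked counts, and the part of sex was not tested beyond this.

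**Figure D5:**
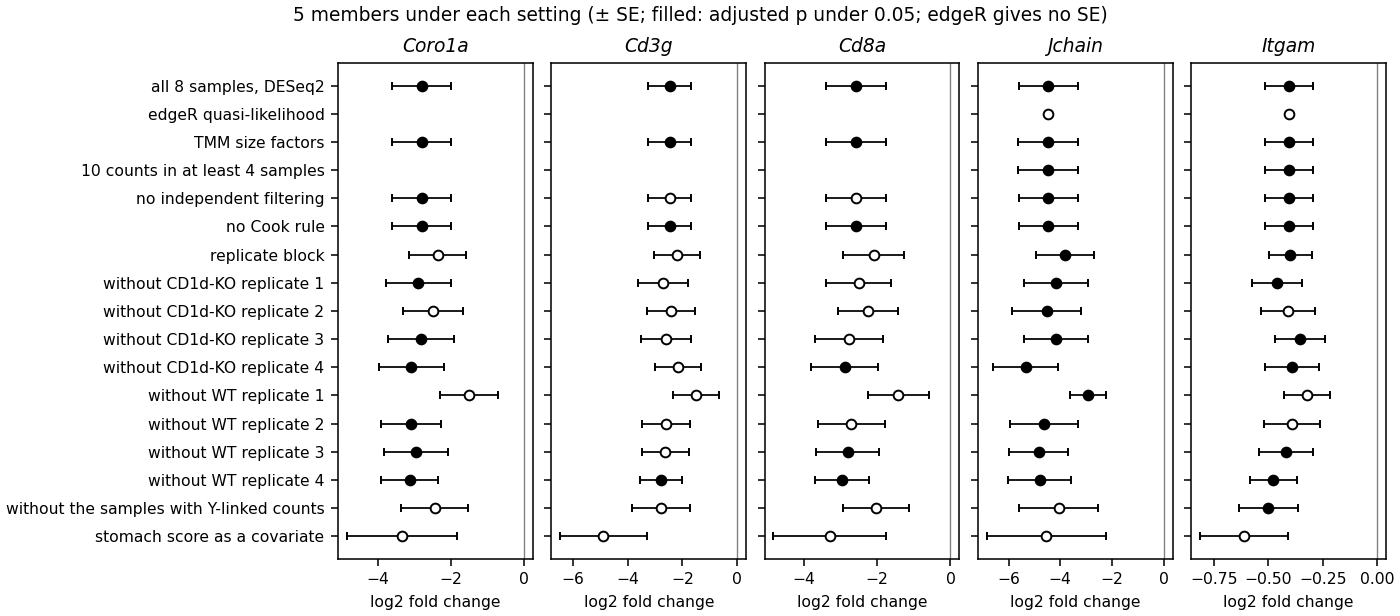
Log2 fold change with its SE of the 5 called genes in the fit of all samples and in each alternative, filled where the adjusted p was under 0.05 (edgeR gives no SE, and a missing point means that the gene was filtered out). Points stay below 0 in each fit shown, and the errors are widest with the stomach score.

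Across tools, the 5 genes stayed below 0 in each fit that gave a value, and the calls varied. edgeR's quasi-likelihood test kept 19 of the 36 genes after its count filter and called 0 of them. It gave 9 of the 19 an unadjusted p under 0.05, a count not computed for the whole table. It called fewer genes over the whole table too, 1.66% of 13744 against 4.03% of 15446 in DESeq2. Jchain had an adjusted p of 0.0572 in edgeR and Itgam 0.0773, with log2 fold changes of -4.46 and -0.41. Coro1a, Cd3g and Cd8a were removed by its filter. With 10 counts required in at least 4 samples, DESeq2 called Jchain (0.00514) and Itgam (0.0118) of 18 tested. Of the whole table, 4.37% of 13768 genes passed in that fit. Over the alternatives in which a gene received an adjusted p, Jchain was called in 13 of 16, Itgam in 11 of 16, Coro1a in 9 of 14, Cd8a in 5 of 14 and Cd3g in 3 of 14. Coro1a, Cd3g and Cd8a each lost their call without WT 1, and Jchain did not.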

How the data were processed

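Poly(A) RNA of 8 samples, 4 CD1d-KO and 4 WT, was sequenced by the study, and genotype and replicate number were read from the sample labels. The authors deposited raw fragment counts per gene with no normalization. Per the file headers, featureCounts 1.6.4 counted read pairs over exons by gene with an mm10 annotation, primary alignments and no strand, whereas the submitters' processing notes list HISAT2 and GRCm39. Coordinates are those of the deposited table.

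The counts of CD1d-KO and WT were compared over the whole table with DESeq2 1.42.0 (R 4.3.3), which the study's methods name, with genotype as the only term. Size factors were medians of ratios, and independent filtering and Cook's rule were on. P-values were adjusted over the 15446 genes above a mean of 2.41 normalised counts, and an adjusted p under 0.05 was called. Of 19088 genes with counts, 3642 received no adjusted p. Errors of fold changes are SE. Intervals and floors cover counting error only. FPKM was computed from the counts, their total and the exon length in the table. The fit was tested on simulated data. Only more abundant genes were given a change there, so changes in genes as scarce as most lymphoid genes here were not simulated. No pair of samples of a genotype was a copy (chi-square over degrees of freedom at least 9.88 over 13441 genes).

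The 36 genes and the 11 further lists were chosen with earlier results of these data known. Named were the 36 genes, Epcam, Cdh1, Vil1, Lyz1, Cd1d1, Ddx3y, Ifng and Zbtb16, and from each further list up to 4 called genes with the smallest adjusted p or, with none called, the 2 with the highest mean. Xist, Itgb2, Spi1, Cd163, Fcgr1 and the genes at 0 were named after their values were seen. The further lists covered other pan-leukocyte, T and NK, B and plasma and myeloid genes, mast cells and eosinophils, stroma and endothelium, erythroid cells, epithelium, tuft cells, Paneth cells and stomach. The gene called among the other B and plasma genes is not reported here. Class sums and medians are descriptions without a test. Alternatives were edgeR 4.0.16 (quasi-likelihood), TMM factors, a filter of 10 counts in at least 4 samples, no independent filtering, no Cook rule, a replicate block, each sample left out, the samples with Y-linked counts left out and a stomach score as a covariate.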

Additional observations from a re-analysis of the deposited data

Results flagged for a closer look

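In each genotype, the highest or lowest of the 4 samples was compared with its nearest neighbour relative to the whole range (Dixon's criterion) for the 31 tested genes and the class sums, 70 groups in all. For normally distributed values chance marks about 1 in 20 such groups, and the rate for these counts, many of them low, was not computed. Of the 70 groups, which share samples, 5 were marked, 4 of them in WT 1 and 1 in CD1d-KO. WT 1 stood apart for Coro1a at 72.6 normalised counts, for Cd3d at 12.8, for Zap70 at 27.5 and for Itgax at 19.6. These 4 genes belong to 3 of the classes, and the other WT samples reached at most 17.5, 2.10, 4.85 and 4.19. CD1d-KO 1 stood apart from below for Mzb1, at 0 against 1.90 to 1.95 in the other CD1d-KO samples, where 2 counts a sample made that gap. No class sum was marked.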

How the results depend on the processing

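Of 447 values of the 31 tested genes under 16 alternatives, 400 kept direction and side of the threshold, 33 lost the call, 3 gained it and 11 changed sign, none of the last a called gene. Cd247 turned to -0.11 with the replicate block, -0.54 without CD1d-KO 2 (-0.54 to 0.49 with 1 sample left out), -0.95 without the Y-positive samples and -0.58 with the stomach score. Ctss turned to 0.022 and 0.055 in the last 2 settings. Fcer1g turned to 0.15 without the Y-positive samples and changed sign without CD1d-KO 1, 2 or 4 or WT 3 (-0.39 to 0.13 with 1 sample left out).

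Calls among the 36 genes numbered 5, and 0 with edgeR, 2 with the filter of 10 counts, 3 without independent filtering, 2 with the replicate block, 1 without the Y-positive samples and 0 with the stomach score. Leaving out 1 sample gave 1 to 7. The whole-table share called was 4.03% in the main fit, 1.66% with edgeR, 4.37% with the filter of 10 counts and 2.79% without independent filtering. It was 3.86% with the replicate block, 2.57% without the Y-positive samples and 0.632% with the stomach score. By class, pan-leukocyte calls went from 1 to 0 with edgeR, the 10-count filter, the block, the Y-positive samples left out and the score (0 to 2 with 1 sample left out). T and NK calls went from 2 to 0 in these 5 and without independent filtering (0 to 3). With edgeR and with the 10-count filter, Coro1a, Cd3g and Cd8a were filtered out, so there they were not tested. B and plasma calls went from 1 to 0 with edgeR, without the Y-positive samples and with the score (1 to 2), and myeloid calls from 1 to 0 with edgeR and the score (0 to 1).

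Same-numbered samples of the 2 genotypes had correlations of their deviations of 0.10, 0.01, 0.15 and -0.04. WT 1 was the best match of CD1d-KO 1 and 2, and WT 3 that of CD1d-KO 3 and 4. The same number was thus the best match for 1 and 3 and not for 2 and 4. These low correlations do not settle whether samples were paired, and the main fit did not take the numbers as pairs. The replicate block left 2 calls, Jchain and Itgam, of 28 tested.

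Median log2 fold changes covered the genes with an adjusted p in each setting, so the genes differed between settings. For pan-leukocyte genes they were -2.90 with the score and -0.83 with edgeR and with the 10-count filter, which both left out Coro1a and Cd52. Ptprc, the middle gene of those kept, was at -0.83 in the main fit too. For T and NK genes they were -1.09 with edgeR and with the 10-count filter. Itgae and Cd7, the middle genes of those kept there, were at -0.66 and -1.51 in the main fit and -0.66 and -1.52 in edgeR. The T and NK medians were -1.51 with the replicate block, -1.42 without the Y-positive samples and -3.21 with the score. They lay between -2.67 and -0.89 with 1 sample left out. For B and plasma genes they moved to -1.84 without the Y-positive samples and -2.39 with the score. For myeloid genes they were -0.089 with edgeR and with the 10-count filter and -0.40 without independent filtering. Ctss, the middle myeloid gene kept by edgeR and by the 10-count filter, was at -0.087 in the main fit. With the median of the genes' ratios in place of the ratio of sums, WT over CD1d-KO went from 2.61 to 4.86 for T and NK genes, from 4.04 to 2.16 for B and plasma genes, which then lay below T and NK, from 2.10 to 2.44 for pan-leukocyte genes and from 1.13 to 1.32 for myeloid genes (1.31 without Ctss).

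Calls in the further lists moved as follows. Other pan-leukocyte genes went from 3 to 0 with edgeR, without the Y-positive samples and with the score (1 to 4 with 1 sample left out). Other T and NK genes went from 0 to 1 in the last 2 (0 to 1). Other B and plasma genes went from 1 to 0 with edgeR, the 10-count filter, the block, the Y-positive samples left out and the score (0 to 2). Other myeloid genes went from 3 to 0 with edgeR and to 1 with the block, without the Y-positive samples and with the score (0 to 3). Tuft cell genes went from 1 to 0 with edgeR and without the Y-positive samples and to 4 with the block (0 to 5), Paneth cell genes from 3 to 1 with edgeR and with the score, epithelial genes from 0 to 1 without WT 3, and stomach genes from 7 to 4 without independent filtering and to 0 in the last 2 settings (2 to 11). Apart from genes that a filter left untested, the cause of these changes was not tested. At 0 to 20 counts a sample, as for most lymphoid genes in CD1d-KO, the depth limits what a fold change can show.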
